A study of Mus musculus with 6 samples.

Results

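The genes described here are 9 secreted antimicrobial and regenerating (REG) products of the intestinal epithelium: the Paneth cell products Lyz1, Ang4, Mmp7 and Itln1, and the REG genes Reg1, Reg3a, Reg3b, Reg3g and Reg4. They were taken by symbol, and 9 of 9 were found among the 20409 features of the count table, each in 1 row. The 9 members passed the filter on low counts both with all 6 libraries, where 13346 features passed, and without wild-type replicate 1, where 13769 did. RNA came from the villus epithelium of the duodenum, 1 library per mouse, from 3 wild-type and 3 double mutant mice. Double mutant mice carried Smad4 fl/fl, Ctnnb exon3 fl/wt and the Villin-CreERT2 transgene, whose promoter is active throughout the intestinal epithelium, on a background enriched for C57BL6. They were given tamoxifen at 0.05 g/kg in 4 daily injections to delete Smad4 and to remove exon 3 of β-catenin, which leaves a stabilised protein, and villi were taken 7 days after the first injection. The wild-type mice were littermates that received no injection, so that tamoxifen and genotype cannot be told apart. In each group replicate 1 was male and replicates 2 and 3 were female, and the groups were matched for age, which the sources used here do not give.

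Paneth cells sit at the base of the crypts, beside the stem cells, and release granules of lysozyme, α-defensins and other microbicidal proteins into the crypt lumen. The mouse enzyme matrilysin, encoded by Mmp7, cuts the α-defensin precursors into their active form. The REG proteins are small secreted C-type lectins. Reg3b and Reg3g are made by enterocytes as well as Paneth cells and kill bacteria near the epithelium, and their transcription is known to rise with signals from microbes and with interleukin-22 acting through STAT3. Wnt signalling through β-catenin and the factor Sox9 are known to be needed for Paneth cell formation.

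Between 19678507 and 26337318 reads were counted per library, so that 3 counts, taken as the smallest level that can be read, lay between 0.125 and 0.163 normalised counts (CPM, counts relative to library size after scaling by the TMM factors of edgeR). These floors cover counting error only. Smad4 was at 119.6 to 179.9 CPM in the wild-type and 26.0 to 36.8 CPM in the double mutant libraries, as their labels state. Wild-type replicate 1, the only wild-type male, stood apart from the other 5 libraries in its secretory genes. The 18 defining Paneth genes in the table (Lyz1, Ang4, Mmp7 and 15 α-defensin genes) summed to 6.20 CPM in that library and to 617 and 1058 CPM in wild-type replicates 2 and 3, with 11, 3 and 0 of the 18 at 0 counts. They summed to 128, 201 and 187 CPM in double mutant replicates 1, 2 and 3, with 5 of 18 at 0 counts in each. The 8 goblet cell markers summed to 125 CPM in wild-type replicate 1, to 11604 and 11029 CPM in the other wild-type libraries and to between 4665 and 5059 CPM in the double mutant. In wild-type replicates 2 and 3 most of that sum was Fcgbp (8008 and 6923 CPM, against 2266 to 2892 CPM in the double mutant). Agr2, Spink4 and Clca1 were higher in each double mutant library than in any wild-type one. Neither Agr2 nor Spink4 was called by edgeR, with or without wild-type replicate 1. With all 6 libraries 1 of the 8 markers was called higher and 0 lower, against 19.7% and 17.0% of all tested genes. The lower count was also 0 at an unadjusted p under 0.05, by DESeq2 and by limma-voom. Without wild-type replicate 1, 1 was called higher (Clca1) and 5 lower (Fcgbp, Zg16, Muc2, Spdef and Tff3), against 20.2% and 17.1%. DESeq2 and limma-voom each gave 2 higher and 5 lower without that library. Enterocyte markers, in contrast, were not low in wild-type replicate 1, with a sum of 44457 CPM against 37884 and 38046 CPM in the other wild-type libraries and 23199 to 26550 CPM in the double mutant. Within the wild-type group this library and the male sex cannot be told apart. The crypt stem cell markers were lowest in it too (27.5 CPM), and whether its villi were collected differently was not tested. Fold changes, calls and orders of level of the members are therefore given with and without wild-type replicate 1, and calls of other genes hold in both fits unless 1 fit is named.

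With all 6 libraries, 4 of the 9 members were higher in the double mutant and 0 were lower by edgeR's quasi-likelihood test at an adjusted p under 0.05, against 19.7% of all tested genes higher and 17.0% lower. At an unadjusted p under 0.05 the counts were again 4 and 0 (24.8% and 21.8% of all tested genes), limma-voom gave 4 and 0 (20.2% and 16.9%), and DESeq2 gave 4 and 1, against 15.8% and 15.2% of the genes it tested. Of all calls by edgeR, 53.6% were higher in the double mutant, and 72.4% were when libraries were scaled by their totals alone, which moved the median of all genes from 0.02 to 0.21 and changed no member's direction. Without wild-type replicate 1, 5 members were higher and 2 lower, against backgrounds of 20.2% and 17.1%. The members that rose in both fits were Reg1, Reg3a, Reg3b and Reg3g, while Mmp7 (higher), Ang4 and Itln1 (lower) passed the test only in the fit without that library. Lyz1 and Reg4 passed in neither. All double mutant libraries lay above all wild-type libraries for 5 members (28.1% of tested genes) and below them for 0 (24.2%), and without wild-type replicate 1 for 5 (32.9%) and 2 (29.3%). The median log2 fold change of the 9 members was 0.65 with all 6 libraries and 0.51 without wild-type replicate 1, against 0.02 and 0.03 over all tested genes. In these bulk libraries, fewer cells of a type and less RNA per cell cannot be told apart.

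**Figure D1:**
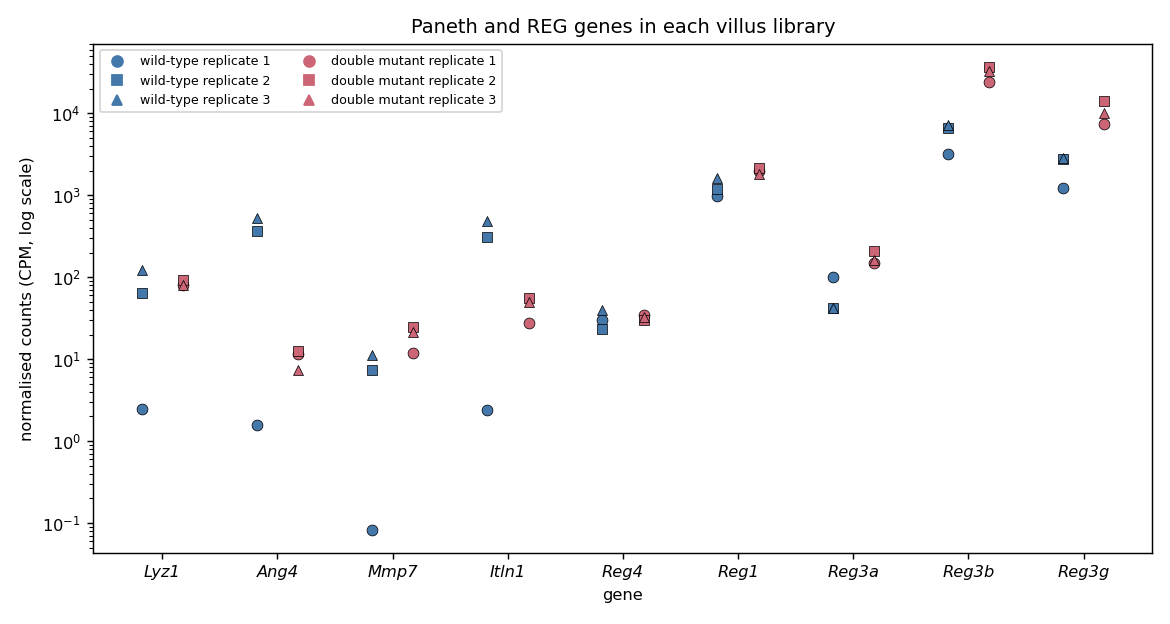
Normalised counts (CPM, log scale) of the 9 members, with 1 point per library, wild-type in blue and double mutant in red. Wild-type replicate 1 (blue circle) lies far below the other wild-type libraries for Lyz1, Ang4, Mmp7 and Itln1 but not for Reg4, Reg1 or Reg3a, and the double mutant points of Reg1, Reg3a, Reg3b and Reg3g lie above all wild-type points. Levels are not divided by gene length, so heights should be compared within a gene.

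The REG members Reg3b, Reg3a, Reg1 and Reg3g lie with Reg3d and Reg2 in 1 cluster of 98.0 kb on chromosome 6 (mm9, 78320879 to 78418868), which holds no other gene of the table. Because the members in the cluster were called higher in both fits, the 130 bases before the transcription start of each are shown. They were read from the RefSeq promoter table (GRCm38.p6) and placed in mm9 by an exact match, at chr6:78320749-78320878 (plus strand), chr6:78418869-78418998 (minus strand), chr6:78330573-78330702 (plus strand) and chr6:78375847-78375976 (plus strand). Each is written 5′ to 3′ on the strand of its gene, and capitals mark TATAAA (the TATA box core), CTTTGA (a core bound by TCF/LEF factors, the DNA-binding partners of β-catenin) and TTCNNNGAA (a core bound by STAT factors).
Reg3b: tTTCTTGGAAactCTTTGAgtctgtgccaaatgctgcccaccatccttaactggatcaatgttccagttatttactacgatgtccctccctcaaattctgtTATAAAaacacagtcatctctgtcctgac
Reg3g: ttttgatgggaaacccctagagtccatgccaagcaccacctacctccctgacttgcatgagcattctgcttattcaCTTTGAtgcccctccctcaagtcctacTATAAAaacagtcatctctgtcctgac
Reg3a: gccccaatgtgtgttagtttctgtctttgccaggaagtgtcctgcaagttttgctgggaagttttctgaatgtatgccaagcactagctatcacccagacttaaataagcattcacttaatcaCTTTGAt
Reg1: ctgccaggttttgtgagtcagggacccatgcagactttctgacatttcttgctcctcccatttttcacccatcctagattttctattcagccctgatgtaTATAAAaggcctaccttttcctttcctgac
Reg3b carries TATAAA at position -29, Reg3g at -27 and Reg1 at -30, counted back from the base before the start, and Reg3a has none in this window. CTTTGA lies at -117 in Reg3b, -54 in Reg3g and -7 in Reg3a, and the only TTCNNNGAA of the windows shown lies at -129 in Reg3b. Reg3b and Reg3g share a run of 29 identical bases that begins at -20 in both and runs past the transcription start, beyond the windows shown. It is the longest run shared by any pair of the 7 REG promoter sequences, which include bases after the start. In 250 bases upstream, searched on both strands, TATAAA was found in 4 of the 9 members, CTTTGA in 3 and TTCNNNGAA in 2 (Ang4 and Reg3b). Of 32851 promoters in the RefSeq table, 12.4% held TATAAA, 13.8% CTTTGA and 7.02% TTCNNNGAA in the same length. No match overlapped another in the members, and these are matches of letters, not sites shown to be bound.

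Reg3b (ENSMUSG00000071356), a lectin that acts on Gram-negative bacteria, was at 3211, 6598 and 7142 CPM in wild-type replicates 1, 2 and 3 and at 23939, 36597 and 32379 CPM in double mutant replicates 1, 2 and 3. The groups did not overlap, and the lowest double mutant library lay above the highest wild-type one. Its mean rose 5.48-fold (4.51-fold without wild-type replicate 1), from 5650 ± 2130 to 30972 ± 6446 CPM (SD, n = 3 each), a log2 fold change of 2.45 ± 0.32 (SE, adjusted p = 0.00119), and without wild-type replicate 1 the change was 2.17 ± 0.19 (adjusted p = 4.89e-05). By count, Reg3b was the gene with the most reads in each of the double mutant libraries (rank 1), and held ranks 31, 10 and 7 in wild-type replicates 1, 2 and 3. Reads of Reg3b alone made up 2.59%, 3.87% and 3.45% of the double mutant libraries and 0.293%, 0.616% and 0.686% of the wild-type ones.

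Reg3g (ENSMUSG00000030017), which kills Gram-positive bacteria by binding their peptidoglycan, was at 1217, 2785 and 2874 CPM in the wild-type and at 7472, 14300 and 9985 CPM in the double mutant, in replicate order. It rose 4.62-fold in the mean (3.74-fold without wild-type replicate 1), with no overlap of the groups, a log2 fold change of 2.21 ± 0.39 (adjusted p = 0.00517) and, without wild-type replicate 1, 1.90 ± 0.26 (adjusted p = 0.000835). Reg3g held rank 3 by count in each double mutant library and 114, 40 and 33 in the wild-type libraries. Its level followed that of Reg3b closely: there were 0.379, 0.422 and 0.402 counts of Reg3g per count of Reg3b in the wild-type and 0.312, 0.391 and 0.308 in the double mutant, groups that overlap. The coding sequences of both genes are 76.0% identical and their transcripts share runs of at most 35 bases, well under the read length of 150 bases. Reg3b and Reg3g kept their call in 6 of 6 fits that left out 1 library, with log2 fold changes of 2.17 to 2.66 and 1.90 to 2.41.

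Reg3a (ENSMUSG00000079516), a related lectin of the same cluster, was at 99.6, 42.2 and 42.5 CPM in the wild-type and at 150, 209 and 164 CPM in the double mutant. Here wild-type replicate 1 was the highest wild-type library, not the lowest, and the groups still did not overlap. The log2 fold change was 1.504 ± 0.36 (adjusted p = 0.0192) with all libraries and 2.04 ± 0.17 (adjusted p = 2.71e-05) without that library. The call was lost without wild-type replicate 2 (1.29, adjusted p = 0.0522), without double mutant replicate 2 (1.35, adjusted p = 0.0768) and without a filter on low counts (1.52, adjusted p = 0.0694).

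Reg1 (ENSMUSG00000059654), the founding REG gene, known from regenerating pancreas and also expressed in the gut, was at 993, 1179 and 1610 CPM in the wild-type and at 1951, 2154 and 1841 CPM in the double mutant. The groups did not overlap, but the change was small beside that of the Reg3 genes, 1.57-fold in the mean (1.42-fold without wild-type replicate 1) and 0.65 ± 0.18 on the log2 scale (adjusted p = 0.022). Without wild-type replicate 1 it was 0.51 ± 0.16 (adjusted p = 0.0302). The call was lost when wild-type replicate 2, double mutant replicate 1 or double mutant replicate 2 was left out (0.59 to 0.67, adjusted p of 0.0546 to 0.0772). Markers of pancreatic acinar cells, which also make Reg1, were low. The 8 in the table summed to 6.16 to 6.58 CPM in the wild-type and 7.22 to 10.5 CPM in the double mutant, most of it Cela1.

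Reg4 (ENSMUSG00000027876) lies apart from the cluster, on chromosome 3, and is known from enteroendocrine cells of the small intestine. It was at 29.9, 23.4 and 39.3 CPM in the wild-type and 35.1, 30.3 and 33.1 CPM in the double mutant, with every double mutant library inside the wild-type range. The log2 fold change was 0.09 ± 0.18 (adjusted p = 0.739), and 0.06 ± 0.20 (adjusted p = 0.833) without wild-type replicate 1. Without wild-type replicate 2 its sign turned (-0.08).

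The other REG genes of the cluster were at low levels. Reg3d was at 0.666, 0.815 and 1.01 CPM in the wild-type and 5.91, 5.10 and 6.54 CPM in the double mutant, and rose by 2.81 ± 0.29 on the log2 scale (adjusted p = 0.000308). Reg2 had 0 counts in each wild-type library and 7, 24 and 10 counts in the double mutant. Its mean of 0.638 CPM was at least 4.36-fold higher than the mean wild-type floor of 3 counts per library. It was under the filter on low counts with all 6 libraries, and since it passed that filter without wild-type replicate 1 only through the double mutant libraries, no test is given. Reg1 and Reg2 coding sequences are 78.7% identical, with shared runs of at most 19 bases. Reads of the 4 cluster members together took 0.504%, 0.990% and 1.12% of the wild-type libraries and 3.63%, 5.64% and 4.73% of the double mutant ones.

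**Figure D2:**
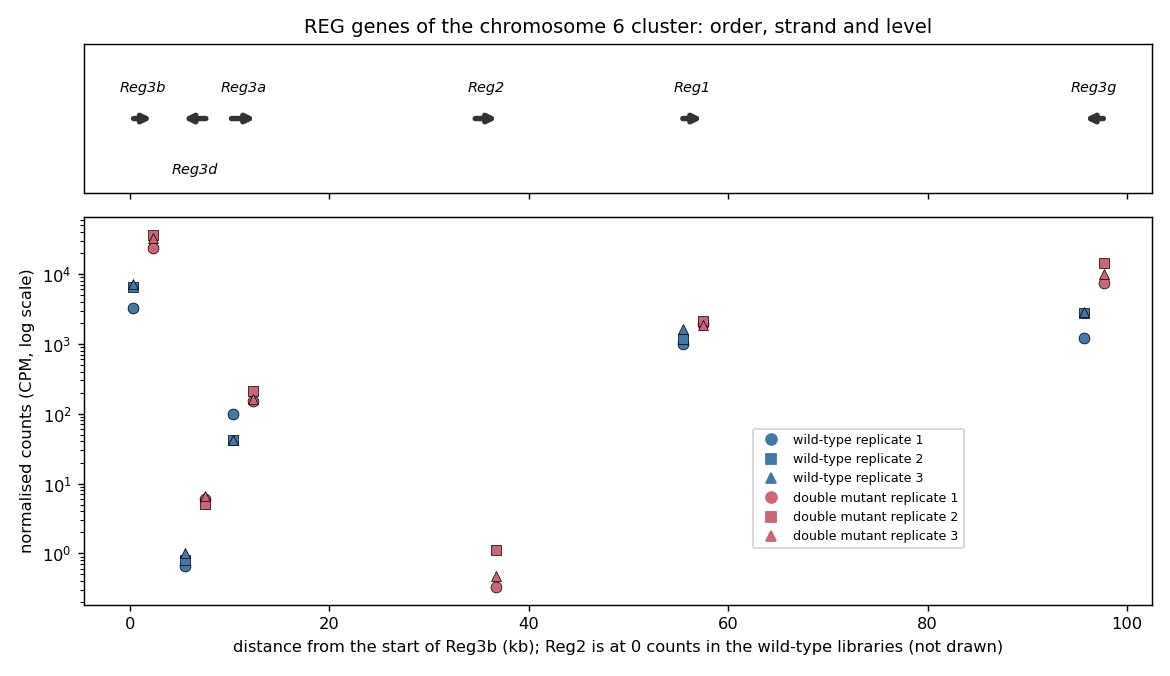
The REG cluster on chromosome 6, with genes drawn to scale as arrows on their strand (top) and normalised counts (CPM, log scale) in each library at each gene's place (bottom), wild-type in blue and double mutant in red. All 6 genes have their double mutant points above their wild-type points. Reg2, at 0 counts in the wild-type libraries, has only double mutant points. Levels are not divided by gene length.

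None of the Paneth cell products Lyz1, Ang4, Mmp7 and Itln1 was called by edgeR with all 6 libraries, and 3 were without wild-type replicate 1. To show the starts of a gene with no call, a gene called lower and a gene called higher in the latter fit, the 130 bases before each are given as above, at chr10:116729925-116730054 (minus strand), chr14:52393266-52393395 (minus strand) and chr9:7691960-7692089 (plus strand) of mm9.
Lyz1: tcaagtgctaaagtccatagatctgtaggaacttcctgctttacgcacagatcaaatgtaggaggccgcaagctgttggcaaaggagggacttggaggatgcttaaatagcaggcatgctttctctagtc
Ang4: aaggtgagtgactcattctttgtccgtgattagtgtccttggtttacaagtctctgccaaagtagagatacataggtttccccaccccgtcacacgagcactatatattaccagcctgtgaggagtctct
Mmp7: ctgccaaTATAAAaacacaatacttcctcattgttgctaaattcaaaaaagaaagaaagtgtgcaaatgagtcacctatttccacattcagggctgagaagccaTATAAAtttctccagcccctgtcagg
Of the letters searched, only Mmp7 holds any in these 3 windows, TATAAA at -26 and at -123. The TTCNNNGAA of Ang4 lies further upstream, at -192.

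Lyz1 (ENSMUSG00000069515), the Paneth cell lysozyme, which cleaves bacterial cell walls, was at 2.50, 64.2 and 124 CPM in wild-type replicates 1, 2 and 3 and at 79.4, 91.7 and 79.6 CPM in double mutant replicates 1, 2 and 3. Every double mutant library lay between wild-type replicates 2 and 3, and wild-type replicate 1 was 25.7-fold below the lower of these. The log2 fold change was 0.40 ± 1.22 (adjusted p = 0.829) with all libraries and -0.17 ± 0.25 (adjusted p = 0.623) without wild-type replicate 1. Lyz2, the macrophage lysozyme gene, is 95.1% identical in its coding sequence and shares a run of 118 bases, but its level was 0.139 to 0.469 CPM, under that of Lyz1 in every library.

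Ang4 (ENSMUSG00000060615), a microbicidal ribonuclease of the angiogenin family, was at 1.58, 370 and 532 CPM in the wild-type and at 11.4, 12.6 and 7.35 CPM in the double mutant. The double mutant libraries lay below wild-type replicates 2 and 3 and above wild-type replicate 1. With all 6 libraries the log2 fold change was -4.84 ± 1.93 and did not pass edgeR's test (adjusted p = 0.123), whereas DESeq2 called it (adjusted p = 0.00675). Without wild-type replicate 1 it was -5.43 ± 0.26 (adjusted p = 6.88e-06), 43.0-fold lower in the mean, from 451 ± 114 (SD, n = 2) to 10.5 ± 2.78 CPM (SD, n = 3).

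Itln1 (ENSMUSG00000038209), intelectin-1, a lectin of Paneth and goblet cells that binds microbial sugars, was at 2.37, 307 and 485 CPM in the wild-type and at 27.9, 55.2 and 49.6 CPM in the double mutant. As with Ang4, the double mutant libraries fell between wild-type replicate 1 and the other wild-type libraries. The log2 fold change was -2.58 ± 1.65 (adjusted p = 0.293) with all libraries and -3.16 ± 0.35 (adjusted p = 0.00135) without wild-type replicate 1, 8.94-fold lower in the mean.

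Mmp7 (ENSMUSG00000018623), the matrilysin that processes α-defensins, had a positive log2 fold change in both fits. It was at 0.0832, 7.28 and 11.3 CPM in the wild-type, the first of these from 2 counts, and at 12.0, 24.8 and 21.2 CPM in the double mutant. The groups did not overlap, but wild-type replicate 3 and double mutant replicate 1 nearly met. The log2 fold change was 1.65 ± 1.19 (adjusted p = 0.335) with all libraries and 1.06 ± 0.33 (adjusted p = 0.038) without wild-type replicate 1, and the latter call was lost without a filter on low counts (adjusted p = 0.0662). Mmp7 overlaps AV064505, on the opposite strand and outside the table, and the strand setting of the counting is not given in the sources used here.

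**Figure D3:**
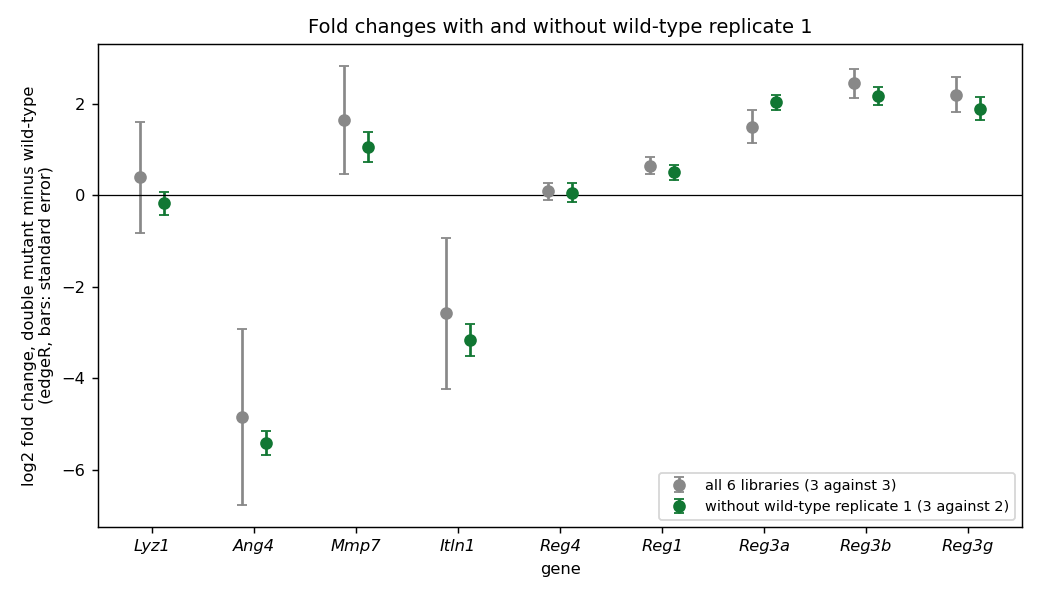
Log2 fold change (double mutant minus wild-type, edgeR) of each member with its standard error as bars, with all 6 libraries in grey and without wild-type replicate 1 in green. Leaving out that library shortens the bars of Lyz1, Ang4, Mmp7 and Itln1 and turns the sign of Lyz1, while Reg1, Reg3a, Reg3b and Reg3g stay above 0 in both fits.

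In ratio to Lyz1 within the same library, a measure that does not depend on depth or scaling, Ang4, Itln1 and Mmp7 separated the groups with wild-type replicate 1 included. There were 0.633, 5.77 and 4.30 counts of Ang4 per count of Lyz1 in wild-type replicates 1, 2 and 3 and 0.144, 0.138 and 0.0923 in the double mutant. For Itln1 the ratios were 0.950, 4.78 and 3.91 against 0.351, 0.602 and 0.624. For Mmp7 they ran the other way, 0.0333, 0.113 and 0.0909 against 0.151, 0.270 and 0.266. The first of these Mmp7 ratios rests on 2 counts of Mmp7, under the floor of 3, so its size is uncertain. In each of these 3 cases the groups did not overlap, which is a description: with 3 against 3 an exact two-sided permutation test cannot give a p below 0.1, and of all tested genes 10.1% had ratios to Lyz1 that lay lower in every double mutant library than in any wild-type one, and 0.659% had ratios that lay higher. Defa24, the Defa gene with the most counts, did overlap, with 0.550, 2.41 and 2.69 counts per count of Lyz1 against 0.274, 0.656 and 0.873. Pla2g2a, the secreted phospholipase of Paneth granules, had 0, 0.701 and 0.741 against 2.98, 7.93 and 7.44.

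**Figure D4:**
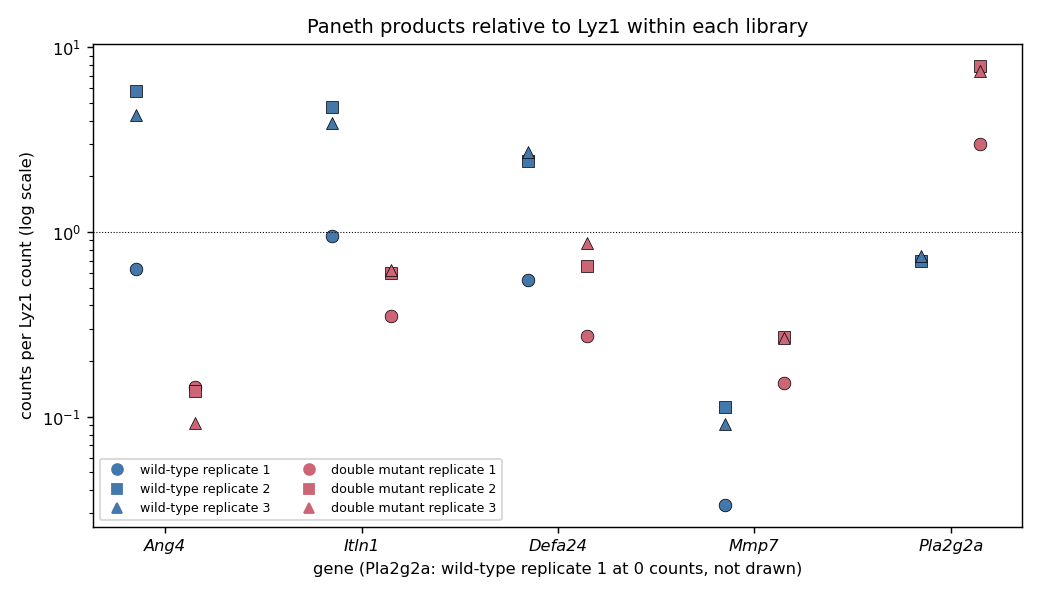
Counts of 5 Paneth products per count of Lyz1 in the same library (log scale), wild-type in blue and double mutant in red, with a dotted line at 1. Ang4 and Itln1 lie lower and Mmp7 and Pla2g2a higher in every double mutant library than in any wild-type library, and Defa24 overlaps. Wild-type replicate 1 of Pla2g2a is at 0 and is not drawn.

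The wider list of Paneth products (30 in the table besides the members, among them the α-defensins) was mostly too low to test with all 6 libraries. Of 14 tested, 0 rose and 0 fell by edgeR, with 0 and 1 at an unadjusted p under 0.05, 0 and 2 of the same 14 by DESeq2 and 1 and 0 by limma-voom, and the median log2 fold change was -1.64. Without wild-type replicate 1, the same 14 gave 1 higher and 6 lower, with a median of -2.23, against 20.2% and 17.1% of all tested genes, and 1 and 8 by DESeq2 and 1 and 9 by limma-voom. A further 7 passed the filter in that fit only through wild-type replicates 2 and 3, where they are high, so that their fall was fixed by the filter and they are not counted. The 1 that rose was Pla2g2a, at 0, 45.0 and 91.8 CPM in the wild-type and 236, 727 and 592 CPM in the double mutant (log2 fold change 2.92 ± 0.71, adjusted p = 0.0442), a call lost without a filter on low counts (adjusted p = 0.0962). Gm14851, a defensin-like transcript, was at 0.291, 29.1 and 39.0 CPM against 0.422, 1.30 and 0.996 CPM, and fell by 5.22 ± 0.32 on the log2 scale in that fit (adjusted p = 9.16e-06). AY761184, also defensin-like, was at 0.291, 27.6 and 41.7 CPM against 0.844, 1.90 and 1.66 CPM and fell by 4.55 ± 0.30 (adjusted p = 1.37e-05). Of the 15 α-defensin genes named Defa, 6 were tested in both fits, of which 1 was called lower by edgeR without that library, 3 by DESeq2 and 4 by limma-voom, and 4 are among the 7 left uncounted. Defa24 itself, at 1.37, 155 and 334 CPM against 21.7, 60.2 and 69.5 CPM, did not pass edgeR's test in that fit (-2.28 ± 0.66, adjusted p = 0.0686) but passed with DESeq2 (adjusted p = 0.00705) and limma-voom (adjusted p = 0.00491). α-defensin genes are near-identical copies, and how reads matching several of them were counted is not given in the sources used here, so their single values are uncertain.

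Regulators of the Paneth lineage were also counted by direction. Of 10 regulators of Paneth fate and granules, 3 rose and 0 fell with all 6 libraries (0 lower at an unadjusted p under 0.05, and 0 by DESeq2 and limma-voom), and 4 rose and 3 fell without wild-type replicate 1, against the same backgrounds of 19.7% and 17.0%, and 20.2% and 17.1%. Sox9, needed for Paneth cells to form, was at 6.16, 8.48 and 11.8 CPM in the wild-type and 37.7, 25.0 and 39.0 CPM in the double mutant and rose by 1.95 ± 0.27 (adjusted p = 0.00112). Xbp1, which sustains secretion, was at 157, 170 and 170 CPM against 242, 311 and 251 CPM and rose by 0.70 ± 0.13 (adjusted p = 0.00343). Atoh1, the master regulator of secretory fate, was at 0.125, 16.4 and 12.4 CPM against 7.08, 6.58 and 6.50 CPM, and fell by 1.10 ± 0.19 without wild-type replicate 1 (adjusted p = 0.00155). Gfi1, downstream of Atoh1, was at 0.458, 4.46 and 5.40 CPM against 2.53, 3.34 and 2.42 CPM and fell by 0.83 ± 0.26 in that fit (adjusted p = 0.0316), a call lost when only library size was used for scaling (-0.66, adjusted p = 0.0737). The 5 crypt stem cell markers, which would accompany crypt bases among the villi, summed to 27.5, 99.2 and 105 CPM in the wild-type and 188, 144 and 135 CPM in the double mutant, with none at 0 counts. The paper reports expression of Lgr5, which is among these markers, in dedifferentiating villus cells of the double mutant. The double mutant sums therefore cannot be read as a measure of crypt bases alone. Whether crypt bases or villus cells gave the higher sums was not tested. The part of crypt bases in the Paneth values was not tested either.

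Of 13 other antimicrobial genes of the epithelium counted with all 6 libraries, 2 were called higher, against a background of 19.7%, and 5 lower (17.0%), with a median of -1.27. Without wild-type replicate 1, 2 were higher (20.2%) and 8 lower (17.1%), with a median of -0.96. The peptidoglycan-binding Pglyrp1 was at 9.65, 23.4 and 26.7 CPM against 77.0, 121 and 92.7 CPM and rose by 2.29 ± 0.39 (adjusted p = 0.00494). Dmbt1, a mucosal scavenger receptor, was at 232, 1065 and 940 CPM against 3253, 4159 and 2680 CPM and rose by 2.17 ± 0.58 (adjusted p = 0.0333), with the call kept only without wild-type replicate 1 among the 6 fits that left out a library (1.75 to 2.52, adjusted p of up to 0.114) and lost without a filter on low counts (adjusted p = 0.0978). Lcn2, which sequesters bacterial siderophores, was at 0.375, 0.326 and 0.505 CPM against 0.797, 1.39 and 1.19 CPM. It passed the filter on low counts only through the double mutant libraries, so it is left out of these counts and no test is given. Duox2 and its maturation factor Duoxa2, which release hydrogen peroxide at the surface, fell: Duox2 was at 1591, 1672 and 1638 CPM against 139, 208 and 162 CPM, a change of -3.27 ± 0.17 (adjusted p = 1.66e-05). Duoxa2 was at 373, 414 and 372 CPM against 21.9, 36.0 and 28.5 CPM, a change of -3.75 ± 0.19 (adjusted p = 1.56e-05).

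Genes of the pathway known to induce Reg3b and Reg3g were counted in the same way. Of 12 tested genes for the interleukin-22 receptor, STAT3 signalling and microbe sensing, 1 rose, against a background of 19.7% with all 6 libraries and 20.2% without wild-type replicate 1, and 3 fell (17.0% and 17.1%) in each fit, with medians of -0.18 and -0.26. Il22ra1, the interleukin-22 receptor subunit of epithelial cells, was at 99.9, 118 and 106 CPM against 60.5, 37.3 and 50.5 CPM and fell by 1.13 ± 0.17 (adjusted p = 0.0018). Socs1, a feedback inhibitor of cytokine signalling, was at 17.1, 13.6 and 10.4 CPM against 2.67, 5.93 and 6.54 CPM and fell by 1.44 ± 0.34 (adjusted p = 0.0117). Stat3 fell by 0.36 ± 0.11 (adjusted p = 0.0334), with the call lost without wild-type replicate 2 or 3 or double mutant replicate 2 or 3 (-0.32 to -0.35, adjusted p of 0.0986 to 0.108), without a filter on low counts (adjusted p = 0.0523) and under scaling by library size (-0.17, adjusted p = 0.292). Bcl3, which binds NF-κB subunits, rose by 0.56 ± 0.15 (adjusted p = 0.0208), with the call lost without wild-type replicate 3 (0.47, adjusted p = 0.0789) or double mutant replicate 2 (0.43, adjusted p = 0.0696). Leukocyte markers, which are not specific to the cells that supply interleukin-22, summed to 75.8, 139 and 137 CPM in the wild-type. They summed to 61.0, 71.5 and 97.5 CPM in the double mutant, with 0 or 1 of the 10 at 0 counts in each library. Their part in these values was not tested.

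Per kb of exon, the order of median levels in the wild-type was Reg3b (8693 CPM per kb), Reg3g, Reg1, Ang4, Itln1, Lyz1, Reg3a, Reg4 and Mmp7 (6.79 CPM per kb). Neighbours from Reg3g to Reg1 and from Ang4 through Reg3a had ranges that overlapped, in part through wild-type replicate 1. Without that library the order was the same, from 9052 to 8.65 CPM per kb, and no neighbouring ranges of these 2 libraries overlapped, although Lyz1 (lowest 50.82) and Reg3a (highest 50.80) nearly met. In the double mutant the order was Reg3b (42660 CPM per kb), Reg3g, Reg1, Reg3a, Lyz1, Itln1, Reg4, Mmp7 and Ang4 (16.1 CPM per kb), with overlapping ranges for Itln1 and Reg4 and for Mmp7 and Ang4. Ang4 thus went from the fourth to the last place, and Reg3a from the seventh to the fourth.

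The genes whose log2 CPM followed 3 of the members most closely over the 6 libraries, among 10620 genes with a mean of at least 50 counts, were different for each. For Lyz1 they were Plekhg3, Tnfaip8, Tff3, Ccl6 and Tnfrsf1b (Pearson r of 0.992 to 0.995), all of them lowest in wild-type replicate 1, as Tff3 at 15.6 CPM there and 467 to 802 CPM elsewhere. For Reg3b they were Efna4, Zc3h3, Utp14a, 1810030O07Rik and Dock6 (r of 0.998 to 1.00), as Efna4 at 0.791, 1.52 and 1.57 CPM against 4.36, 6.49 and 5.55 CPM. For Reg4 they were Utp23, Cradd, Card6, Ctss and 1 numbered transcript outside the annotation (r of 0.921 to 0.969). These values rest on 6 points from 2 groups that share libraries and depth, were not computed without wild-type replicate 1, and are given as a description.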

How the data were processed

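Polyadenylated RNA of duodenal villus epithelium, separated with EDTA and held back on a filter, was sequenced as paired reads of 150 bases, 1 library per mouse. The authors aligned the reads to mm9 with HISAT2 2.0.5 and deposited raw counts per gene from featureCounts 1.5.0-p3, without normalization or pooling. The strand setting and the rule for reads matching several genes are not given in the sources used here. Of 20073 Ensembl identifiers in the table, 20032 matched the GENCODE annotation of mm9, which gave symbols, coordinates and exon lengths, and 336 features are numbered transcripts outside it. 

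From the counts onward, R 4.3.3 was used with edgeR 4.0.16 (filterByExpr by group, TMM, robust glmQLFit and glmQLFTest), the p-values were adjusted by Benjamini-Hochberg across every tested gene, and calls were made at an adjusted p under 0.05. Each standard error is the size of the log2 fold change over the root of its F statistic. CPM are scaled by the TMM factors of all 6 libraries. Levels, ratios and marker sums are descriptions. Alternatives were DESeq2 1.42.0, limma-voom (limma 3.58.1), RLE factors, library size alone, other filters, a replicate block, sex as a covariate, females only and each library left out. 4 alternatives that combined the omission of wild-type replicate 1 with other settings were chosen after seeing the data. Each group has 3 mice, and the series description calls them biological replicates. The tests were run first on simulated data with known changes. Coding sequences were aligned with Biopython 1.88.

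The members and lists were chosen with earlier results of these data known. Besides the members, the text names, for each list, at most 2 genes per direction with the smallest adjusted p among those called, in either fit, and the 5 genes most like Lyz1, Reg3b and Reg4. Lyz2, Cela1, Defa24, AV064505 and the goblet cell markers named singly were named outside that rule, after their values were seen.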

Additional observations from a re-analysis of the deposited data

How the results depend on the processing

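Reg1, Reg3a, Reg3b, Reg3g, Ang4, Mmp7 and Itln1 kept their direction under every alternative run, but sizes with all 6 libraries moved: under limma-voom Itln1 was -0.68 (from -2.58), Ang4 -2.67 (from -4.84), Mmp7 3.43 (from 1.65), Lyz1 1.72 (from 0.40) and Pla2g2a 7.18 (from 3.51, now called), and under the replicate block Itln1 was -1.42 and Lyz1 1.24. Over the fits that left out 1 library, Lyz1 ran from -0.17 (without wild-type replicate 1) to 1.33, Reg4 from -0.077 (without wild-type replicate 2) to 0.29, Atoh1 from -1.10 to 0.11 (without wild-type replicate 2) and Gfi1 from -0.83 to 0.19 (without wild-type replicate 3), against 0.40, 0.09, -0.51 and -0.30 with all 6 libraries. Lyz1 also turned to -0.13 with females only, Atoh1 to 1.39 (limma-voom), 0.20 (replicate block) and 0.15 (sex as a covariate), and Gfi1 to 0.42, 0.10 and 0.085 under the same alternatives in that order. None of these reversed values passed the test. Members called higher numbered 2 to 5 over the fits that left out 1 library, and members called lower 0 to 2. With DESeq2 1 member was lower, and with females only 2. Of the genes in the 5 lists of related genes, 8 were called higher and 8 lower with all 6 libraries. Leaving out 1 library gave 5 to 10 and 7 to 27, DESeq2 gave 17 lower over the genes it tested itself, and females only 28 lower. The 27 lower calls came without wild-type replicate 1, and 7 of them were fixed by the filter on low counts, as was 1 of the 8 higher calls with all libraries (Lcn2) and 1 of the 10 without wild-type replicate 1 (Reg2). All genes called ranged from 3442 to 5144 over the omissions. The correlations of deviations from the group mean were 0.02, -0.11 and 0.01 for same-numbered samples and -0.10 to 0.09 for differently numbered ones. With 3 samples per group these values cannot decide whether replicate numbers pair the samples. With the replicate block 4 members were higher, 0 lower, 3844 genes were called against 4906, and Stat3 lost its edgeR call (adjusted p = 0.0946). The cause of these changes was not tested. At this depth, levels under about 0.163 CPM cannot be read.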
